A study of Ovis aries with 36 samples.

Results

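EPN1, EPN2, GNA12, WDTC1, SCAND1, RBM38, HDLBP, STK25 and ANKRD11 are 9 genes that were picked because their expression was lower in the longissimus dorsi muscle of sheep fetuses whose dams ate corn. They are followed here in 3 fetal tissues, among 34958 loci counted in muscle, 34246 in the subcutaneous depot and 35060 in the perirenal depot. The loci were found by gene name, and all 9 names were matched in each tissue. The values that chose the genes are the muscle differences of the other diets from the corn diet, so the muscle diet differences are given as a description, and their FDRs only show where the choice fell. The rule of choice did not use their levels across tissues, their diet responses in both adipose depots or their variation between pools. Earlier results of these data were known when the genes were chosen, however, so the adipose values are not an independent look.

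Polypay ewes, all bred to 1 sire, were fed during mid-to-late gestation. The CN group received limit-fed whole shell corn (Corn in the sample labels), the DG group limit-fed dried corn distillers grains, the residue of ethanol fermentation, and the HY group alfalfa haylage (Hay in the labels). RNA of 26 fetuses from 15 dams was combined into 4 pools per diet, 2 of female fetuses (F1 and F2) and 2 of male fetuses (M1 and M2). In the paper's list CN F2 holds only 1 fetus, and the other pools hold 2 or 3. The pools of a name were taken to hold the same fetuses in the 3 tissues, which gave 36 libraries. No group is an untreated control, because every dam received 1 of the 3 diets. As the paper lists the pools, every pool but CN F2 shares a dam with another pool of its diet. Female and male pools of a diet are linked in this way too. The 4 pools of a diet are therefore not fully independent, and p-values measure the spread between pools only.

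These 9 genes belong to different cellular systems. EPN1 and EPN2 encode epsins, adaptors that bend the plasma membrane and load ubiquitin-marked receptors into clathrin-coated pits. GNA12 encodes the alpha subunit of a heterotrimeric G protein that passes receptor signals to the actin cytoskeleton. STK25 is a germinal center kinase that works in complexes with striatins, and in muscle and liver it is known for its influence on lipid storage. WDTC1 is a substrate receptor of a cullin-RING ubiquitin ligase, known from flies and mice for limiting fat accumulation. HDLBP, also called vigilin, is a many-KH-domain protein that binds messenger RNAs at the endoplasmic reticulum. RBM38 is an RNA-binding protein that alters the stability of target transcripts. ANKRD11 is a large chromatin cofactor that recruits histone deacetylases, and SCAND1 is a small SCAN-domain protein that pairs with zinc finger transcription factors.

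Library totals ranged from 13749762 to 29625146 counts in muscle, from 6705766 to 20272024 in subcutaneous and from 7802700 to 15913813 in perirenal adipose tissue. In muscle the CN totals, at most 19387181, lay below every DG total, of which the lowest was 20370147. Levels are given as CPM, the read count scaled by the library total after TMM, a method that corrects library totals for a few abundant transcripts. For these levels TMM was run within each tissue. Of 24 skeletal muscle markers, 21 were matched by name, and their summed level was 164000 to 244000 CPM in muscle. The same sum was 45.6 to 1130 CPM in perirenal adipose tissue, where MYOD1 was at 0 in every pool. In subcutaneous adipose tissue it spanned 1570 to 245000 CPM, with all 21 markers detected, so that some subcutaneous libraries carried as much muscle marker RNA as muscle itself. Summed over the 13 matched of 16 adipocyte markers, the level was 137 to 254 CPM in muscle, 2570 to 12100 CPM in subcutaneous and 7360 to 18700 CPM in perirenal adipose tissue. In pooled tissue, fewer cells of a type and less RNA per cell cannot be told apart.

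Coordinates follow the deposited loci on Oar_v3.1. In muscle STK25 lay at chr1:293633-392874 and HDLBP at chr1:433311-492157, with 40.44 kb between them, close to the start of the chromosome. RBM38 (chr13:58046466-58061508) and SCAND1 (chr13:64660521-64661061) shared chromosome 13. ANKRD11 (chr14:13858332-13925351) and EPN1 (chr14:59131689-59139037) shared chromosome 14. EPN2 was at chr11:33651248-33695329, WDTC1 at chr2:238841160-238888708 and GNA12 at chr24:40358095-40462023. With 5 Mb as the limit, 4 of the 9 genes (STK25, HDLBP, EPN1 and GNA12) were near the outermost locus of their chromosome, where 14% of the loci tested in muscle lay. Each entry covers a whole locus, so exons and untranslated regions were not resolved.

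Some of these loci overlapped others. STK25 overlapped FARP2 in all 3 tissues, and the EPN2 locus of muscle overlapped B9D1. In muscle 2 loci on the same coordinates carried the name RBM38, 1 with a mean of 363 counts and the other with a mean of 65.7 counts per library. In perirenal adipose tissue a second ANKRD11 locus had a mean of 16.9 counts beside 362 for the first. Whether counting used strand is not given in the sources used here, so reads of overlapping loci cannot be told apart with confidence. Where a name had several loci, the one with the highest mean count was used, and the second RBM38 locus is reported beside it.

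In muscle, 8 of the 9 genes had lower values in every CN pool than in any DG or HY pool, a separation found at 5.5% of loci for DG and 7.16% for HY, and RBM38 did not at its more abundant locus. EPN1 stood at 6.95, 7.28, 4.16 and 8.0 CPM in the CN pools F1, F2, M1 and M2, at 16.3 to 27.6 CPM in the DG pools and at 11.7 to 18.6 CPM in the HY pools. The paralog EPN2 stood at 1.87 to 3.33 CPM with CN, 5.16 to 12.4 CPM with DG and 5.34 to 10.5 CPM with HY. GNA12 was the most even of the genes within the CN diet, with 6.75 ± 0.285 CPM (SD, n = 4 pools), against 13.2 ± 2.34 CPM with DG and 14.8 ± 2.13 CPM with HY. For all 3 genes the DG and HY pools overlapped each other.

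WDTC1 had 5.80 ± 2.29 CPM in CN pools, 14.6 ± 4.03 CPM in DG pools and 21.1 ± 5.32 CPM in HY pools of muscle (SD, n = 4 each). HDLBP, the gene with the most reads, had 146 ± 21.3 CPM with CN, 247 ± 31.0 CPM with DG and 262 ± 24.3 CPM with HY. The ratio of DG or HY to CN was thus smaller for HDLBP than for WDTC1. STK25, with 11.5 ± 3.63 CPM in CN pools, and ANKRD11, with 22.9 ± 3.22 CPM, had a CN pool close to the lowest HY pool. The highest CN pool of STK25 was at 15.0 CPM and the lowest HY pool at 15.1 CPM, and for ANKRD11 these were at 26.15 and 27.2 CPM. In ANKRD11 a single DG pool, F1, stood at 66.1 CPM, and the 3 other DG pools lay between 29.2 and 33.7 CPM.

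SCAND1 had the largest difference on few reads. Its counts in the CN pools of muscle were 21, 4, 2 and 5 (F1, F2, M1, M2), those in the DG pools were 175, 75, 47 and 92, and those in the HY pools were 52, 31, 39 and 57. A single CN pool, F1, held 21 of the 32 CN counts. RBM38 was at 17.4 ± 5.14 CPM with CN, 18.9 ± 2.93 CPM with DG and 17.1 ± 1.64 CPM with HY at its more abundant muscle locus, and the pools of the 3 diets overlapped. At the second RBM38 locus the counts were 29, 12, 9 and 24 in CN pools, 92, 84, 78 and 92 in DG pools and 124, 107, 61 and 76 in HY pools. The lower CN values of RBM38 were therefore those of the less abundant locus.

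**Figure D1:**
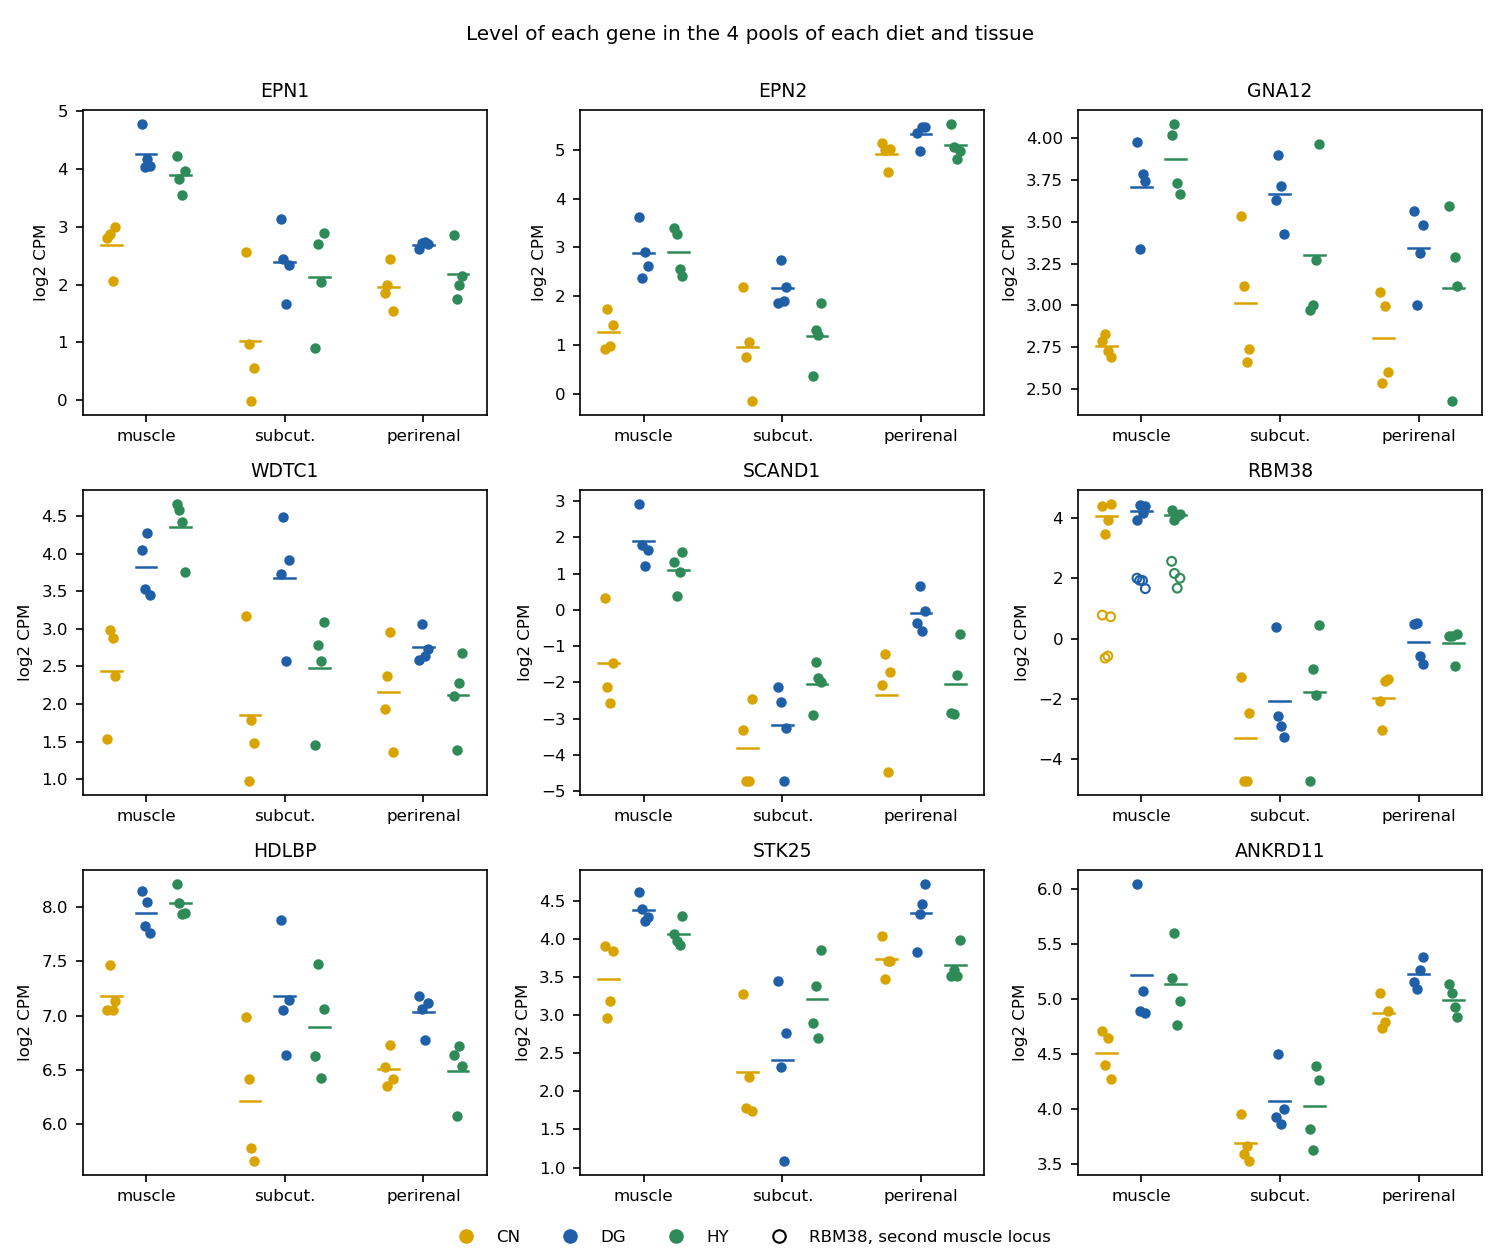
Level of each gene as log2 CPM (TMM scaled within each tissue, prior count 0.5). The CN, DG and HY diets have 4 pools each in muscle, subcutaneous and perirenal adipose tissue. Points are pools, short lines are group means, and open circles are the second RBM38 locus of muscle. Vertical scales differ between panels. In muscle the CN points lie below all others in every panel except that of RBM38 at its more abundant locus, while EPN2 is highest in perirenal adipose tissue and SCAND1 and RBM38 lie at most at 1.52 CPM in both adipose depots.

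Across the 18573 loci tested in muscle with edgeR's quasi-likelihood test, these genes had a median log2 difference of 0.97 for DG over CN and of 1.13 for HY over CN, beside all-locus medians of -0.00236 and -0.0183. For DG over CN, 6 of the 9 genes lay within an FDR of 0.05, where 1.01% of all loci did, and for HY over CN 5 of 9, where 2.69% did. Since the genes were picked on these differences, nothing is read from the counts. Just inside the limit for DG over CN was WDTC1 (FDR 0.050), and just outside it was STK25 (FDR 0.0535). For HY over CN, SCAND1 (FDR 0.0581) lay just outside. None of the 9 was within the limit between DG and HY, where 0% of loci were. The second RBM38 locus differed by 1.68 ± 0.325 (SE) on the log2 scale for DG over CN and by 1.93 ± 0.325 for HY over CN, and the first by 0.12 ± 0.194 and -0.03 ± 0.194. FARP2, which overlaps STK25, differed by 0.16 ± 0.101 for DG over CN, and B9D1, which overlaps EPN2, by 0.12 ± 0.243.

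Because muscle totals differed between diets, the muscle differences were also fitted with the library total in the model. The 8 genes other than RBM38 then differed by 0.74 to 3.38 on the log2 scale for DG over CN and by 0.66 to 2.37 for HY over CN. None was within the limit in that quasi-likelihood fit, with FDRs of 0.214 to 0.381 for DG and 0.121 to 0.335 for HY. After all muscle libraries were thinned to the smallest total the same 8 genes differed by 0.77 to 3.23 for DG over CN. For HY over CN they then differed by 0.58 to 2.24. The quasi-likelihood FDRs after thinning were 0.0119 to 0.174 for DG and 0.0071 to 0.216 for HY. Depth and diet cannot be told apart in muscle for DG against CN, since the totals of those pools did not overlap. For HY against CN they can hardly be told apart either. Only the HY pool M2, with 19071024 counts, lay below a CN total, that of F2 with 19387181.

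The tissues were compared in 1 fit of all 36 libraries over 13937 gene names, with the pool as a block. The rule that chose the genes did not use this comparison. SCAND1 and RBM38 are left out of its counts, because they were low in both depots and entered the fit through muscle, where they are high. SCAND1 did not pass the filter on low counts in either depot, and RBM38 did not in the subcutaneous depot and passed in the perirenal depot only through its DG and HY pools. Relative to subcutaneous adipose tissue 6 of the 7 other genes were higher in muscle at FDR ≤0.05, where 37.3% of all names were called higher. Relative to perirenal adipose tissue 6 of the 7 were higher and 1 lower in muscle, where 42.5% of all names were called higher and 38.2% lower. Counted in either direction, 72.7% and 80.7% of all names were called. Between the depots 4 of the 7 were called, GNA12 as higher and EPN2, STK25 and ANKRD11 as lower in the subcutaneous depot, where 68.2% of all names were called, 36.1% higher and 32.1% lower, and 35.5% were called lower in muscle than in the subcutaneous depot. Loci were assembled separately in each tissue, so a difference of level also holds any difference of the locus models. The CPM values of the next paragraphs were scaled within each tissue, and the log2 differences over all 36 libraries together. Ratios of CPM between tissues therefore do not match the log2 differences exactly, and equal CPM can go with a log2 difference other than 0. The calls rest on the joint fit. Subcutaneous levels, here and in the next paragraphs, also include the muscle RNA of those libraries, whose summed muscle markers reached 245000 CPM.

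EPN1 had 13.8 ± 6.54 CPM in muscle (SD over 12 pools), 4.36 ± 2.54 CPM in subcutaneous and 5.03 ± 1.52 CPM in perirenal adipose tissue. It was higher in muscle than in either depot, by 1.81 ± 0.229 and 1.71 ± 0.228 (SE) on the log2 scale, and the depots did not differ beyond the test (-0.10 ± 0.236, FDR 0.713). Its paralog EPN2 had another order, with 35.4 ± 7.18 CPM in perirenal adipose tissue, 6.02 ± 3.44 CPM in muscle and 3.09 ± 1.66 CPM in subcutaneous adipose tissue. All 12 perirenal values of EPN2, at least 23.3 CPM, exceeded the highest value in any muscle or subcutaneous library, 12.4 CPM. The log2 difference of EPN2 was -2.30 ± 0.241 for muscle over perirenal (edgeR quasi-likelihood test, FDR 1.87e-09) and -3.36 ± 0.258 for subcutaneous over perirenal (FDR 7.87e-12). Its perirenal locus, at chr11:33659812-33691892, was shorter than the muscle locus and did not overlap B9D1.

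GNA12 varied least between tissues, with 11.6 ± 4.0 CPM in muscle, 10.4 ± 3.12 CPM in subcutaneous and 8.72 ± 2.29 CPM in perirenal adipose tissue. Muscle and subcutaneous levels of GNA12 did not differ past the threshold (0.29 ± 0.145 on the log2 scale, FDR 0.0776), although leaving out the CN F1 or the DG F2 pool brought the FDR to 0.0321 or 0.047. Subcutaneous exceeded perirenal adipose tissue by 0.48 ± 0.148 (FDR 0.00605). WDTC1 was at 13.8 ± 7.50 CPM in muscle, 8.14 ± 6.13 CPM in subcutaneous and 5.36 ± 1.86 CPM in perirenal adipose tissue, and its depots did not differ past the threshold (0.66 ± 0.322, FDR 0.0715). HDLBP followed the same order with 218 ± 59.0, 118 ± 51.8 and 105 ± 23.8 CPM, and an FDR of 0.0685 between depots. Both genes came within the limit between depots when the pool block was dropped, WDTC1 at an FDR of 0.0365 and HDLBP at 0.0293. So did WDTC1 without CN F2, CN M1 or HY F1 (FDR 0.0321 to 0.0466) and HDLBP without CN M1 or CN M2 (FDR 0.0174 and 0.0321).

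STK25 had 16.4 ± 4.76 CPM in muscle and 15.6 ± 4.88 CPM in perirenal adipose tissue, a log2 difference of 0.42 ± 0.194 at the edge of the limit (FDR 0.0484). That call was lost without CN F1, CN M2, DG F1, DG F2 or any of the 4 HY pools (FDR 0.0586 to 0.185), with other size factors (FDR 0.0669) and without the filter on low counts (FDR 0.143). ANKRD11 had 32.9 ± 12.97 CPM in muscle and 32.9 ± 4.49 CPM in perirenal adipose tissue, and its log2 difference of 0.33 ± 0.133 (FDR 0.0259) fell to 0.16 without the DG F1 pool (FDR 0.196) and was also lost without HY F2 (FDR 0.0619) and without the filter on low counts (0.24, FDR 0.119). Both genes were lower in the subcutaneous depot, at 7.02 ± 3.701 CPM for STK25 and 15.6 ± 3.60 CPM for ANKRD11. The differences of subcutaneous from perirenal adipose tissue were -1.0 ± 0.203 for STK25 (FDR 0.000111) and -0.87 ± 0.135 for ANKRD11 (FDR 3.33e-06).

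SCAND1 and RBM38 were near the floor of detection in fat. SCAND1 summed to 600 counts over the 12 muscle libraries, 20 over the subcutaneous and 61 over the perirenal libraries. RBM38 summed to 60 subcutaneous and 92 perirenal counts, beside 4351 at the more abundant and 788 at the second muscle locus. As a description with no test, SCAND1 differed by 4.17 ± 0.42 on the log2 scale for muscle over subcutaneous and by 2.50 ± 0.358 for muscle over perirenal adipose tissue. For RBM38 the same differences were 6.01 ± 0.377 and 5.22 ± 0.351 at the more abundant muscle locus. With the second muscle locus in its place they were 3.46 ± 0.347 and 2.59 ± 0.32. Which of the 2 muscle loci matches the RBM38 locus of fat was not determined.

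In subcutaneous adipose tissue 7 of the 9 genes passed the filter on low counts, and SCAND1 and RBM38 did not. None of the 7 was called for any pair of diets by the quasi-likelihood test, where 0% of the 18008 loci were called. For DG over CN, 3 of the 7 (GNA12, WDTC1 and HDLBP) had an unadjusted p under 0.05, as did 15% of all loci, and DESeq2 called WDTC1 (FDR 0.049), as it did 1.75% of the loci for which it gave an adjusted p. For HY over CN no gene was at an unadjusted p under 0.05, and for DG over HY only WDTC1 was (edgeR quasi-likelihood test, FDR 0.231), as were 4.35% and 18.1% of all loci. In none of the 7 were the DG pools all above the CN pools, as they were at 3.57% of loci. All 7 estimates for DG over CN were above 0, with a median of 0.93 on the log2 scale and an all-locus median of -0.00731.

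WDTC1, the ubiquitin ligase receptor, had the largest subcutaneous difference. Its values were 8.97, 1.93, 3.41 and 2.74 CPM in the CN pools F1, F2, M1 and M2, then 13.2, 22.5, 5.89 and 15.1 CPM in the DG pools and 2.70, 6.85, 5.89 and 8.47 CPM in the HY pools. The DG pool M1 lay below the CN pool F1, so the diets overlapped. The log2 difference of DG from CN was 1.72 ± 0.525 (SE, FDR 0.257), and it stayed between 1.43 and 2.43 when any single pool was left out.

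HDLBP stood at 127, 85.3, 55.0 and 50.8 CPM in the CN pools of subcutaneous adipose tissue, at 234, 133, 99.8 and 141 CPM in the DG pools and at 98.7, 178, 85.8 and 133 CPM in the HY pools. The 2 male CN pools were the lowest of the 12, and the CN pool F1 was above 1 DG pool and 2 HY pools. The DG difference was 0.93 ± 0.344 (FDR 0.278) and the HY difference 0.64 ± 0.343 (FDR 0.944). EPN1 had the same male CN pools lowest, at 0.956 and 1.44 CPM beside 5.88 and 1.93 CPM in the female CN pools, and the DG pools lay between 3.13 and 8.79 CPM. GNA12, with 8.28 ± 2.43 CPM in CN, 12.8 ± 1.71 CPM in DG and 10.3 ± 3.66 CPM in HY pools, differed by 0.61 ± 0.268 between DG and CN (FDR 0.32).

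The subcutaneous mean of EPN2 was 4.62 ± 1.43 CPM with DG, 2.27 ± 1.58 CPM with CN and 2.38 ± 0.963 CPM with HY. That of STK25 was instead largest with HY, at 9.68 ± 3.61 CPM against 5.22 ± 3.00 CPM with CN and 6.17 ± 3.66 CPM with DG. Neither difference passed the test, with an FDR of 0.335 for EPN2 (DG over CN) and 0.944 for STK25 (HY over CN). ANKRD11 differed by 0.40 ± 0.215 for DG over CN and 0.36 ± 0.215 for HY over CN. SCAND1 had at most 5 counts in any subcutaneous library and 0 in CN F2, CN M1 and DG M1, and a count of 0 in CN M1 allows up to 0.410 CPM. RBM38 reached 20 counts in DG F1 and 19 counts in HY M2, and no other subcutaneous pool had more than 7.

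Library totals and muscle markers moved with these subcutaneous values. The CN pools M1 and M2 had the smallest totals of the depot, 7109975 and 6705766 counts. Summed muscle markers ranged from 7560 to 113000 CPM in CN, 1830 to 245000 CPM in DG and 1570 to 211000 CPM in HY pools. Their medians were 31900 CPM in CN, 150000 CPM in DG and 14800 CPM in HY pools, so muscle marker RNA was not balanced between diets. With the library total in the model the median DG difference of the 7 genes was 0.53 in place of 0.93, and with the muscle marker level it was 0.78. Without both male CN pools it was 0.52. STK25 turned below 0 in all 3 fits (-0.30, -0.11 and -0.08), and WDTC1 stayed between 1.31 and 1.44.

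In perirenal adipose tissue 8 of the 9 genes passed the filter, RBM38 only through its DG and HY pools, and SCAND1 did not. For DG over CN none of the 8 was called, where 0.115% of the 18246 loci were. All 8 estimates were above 0 (median 0.54, all-locus median -0.00784), and 7 of the 8, all but WDTC1, had an unadjusted p under 0.05, as did 9.9% of all loci. EPN1, HDLBP, ANKRD11 and RBM38 had DG pools that were all above the CN pools, a pattern found at 4.21% of loci, and RBM38 reached the test only because its DG and HY pools were high enough. Without RBM38, 6 of the 7 other genes had an unadjusted p under 0.05 and 3 had separated pools. The likelihood-ratio test called RBM38 (FDR 0.0407) and no other of the 8, where it called 1.06% of loci, and DESeq2 called none, where it called 1.62%. For DG over HY none of the 8 was called (0% of loci), HDLBP and STK25 had an unadjusted p under 0.05 (9.87% of loci), and only HDLBP had DG pools all above the HY pools (3.19% of loci). For HY over CN none was called (0% of loci), and only RBM38 had an unadjusted p under 0.05 (2.31% of loci).

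HDLBP stood at 92.2, 82.0, 106 and 85.6 CPM in the CN pools of perirenal adipose tissue, at 145, 134, 110 and 139 CPM in the DG pools and at 99.6, 67.6, 105 and 93.0 CPM in the HY pools. Here the HY and CN pools overlapped, and the DG pools lay above both. The difference of DG was 0.53 ± 0.149 over CN (FDR 0.183) and 0.53 ± 0.149 over HY (FDR 0.311), and that of HY over CN was -0.000493 ± 0.149. STK25 had the same order, with 13.4 ± 2.21 CPM in CN, 20.6 ± 5.08 CPM in DG and 12.6 ± 2.14 CPM in HY pools. Its DG pool F1, at 14.2 CPM, lay below the highest CN pool, at 16.4 CPM. Its DG difference was 0.62 ± 0.197 over CN (FDR 0.257) and 0.71 ± 0.198 over HY (FDR 0.311).

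EPN1 was nearly constant in the DG pools of perirenal adipose tissue, at 6.11, 6.57, 6.60 and 6.46 CPM, and lay between 2.88 and 5.37 CPM in the CN pools and between 3.31 and 7.21 CPM in the HY pools. Its DG difference from CN was 0.71 ± 0.259 (FDR 0.347). The abundant perirenal EPN2 had 30.8 ± 5.26 CPM with CN, 40.3 ± 6.0 CPM with DG and 35.0 ± 8.05 CPM with HY, a DG difference of 0.39 ± 0.177 (FDR 0.485). ANKRD11 had the smallest DG difference, 0.35 ± 0.122, from 29.3 ± 2.88 CPM with CN to 37.5 ± 3.32 CPM with DG (FDR 0.314). Both epsins thus had lower relative differences in this depot than in muscle, a contrast that was not tested because muscle chose the genes.

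RBM38, at few reads, was the only gene whose perirenal HY values also lay above all CN values. Its counts were 2, 1, 3 and 4 in the CN pools, 22, 11, 6 and 6 in the DG pools and 11, 11, 6 and 9 in the HY pools. The log2 differences were 2.01 ± 0.541 for DG over CN (FDR 0.163) and 1.88 ± 0.549 for HY over CN (FDR 1), where HY pools lay above CN pools at 0.795% of loci. SCAND1, not tested, had 2, 5, 0 and 3 counts in CN pools, 12, 12, 6 and 11 in DG pools and 1, 1, 3 and 5 in HY pools. For the other 7 genes the HY difference from CN lay between -0.09 and 0.35. GNA12 (0.35 ± 0.239) was the highest of these and WDTC1 (-0.09 ± 0.326) the lowest.

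**Figure D2:**
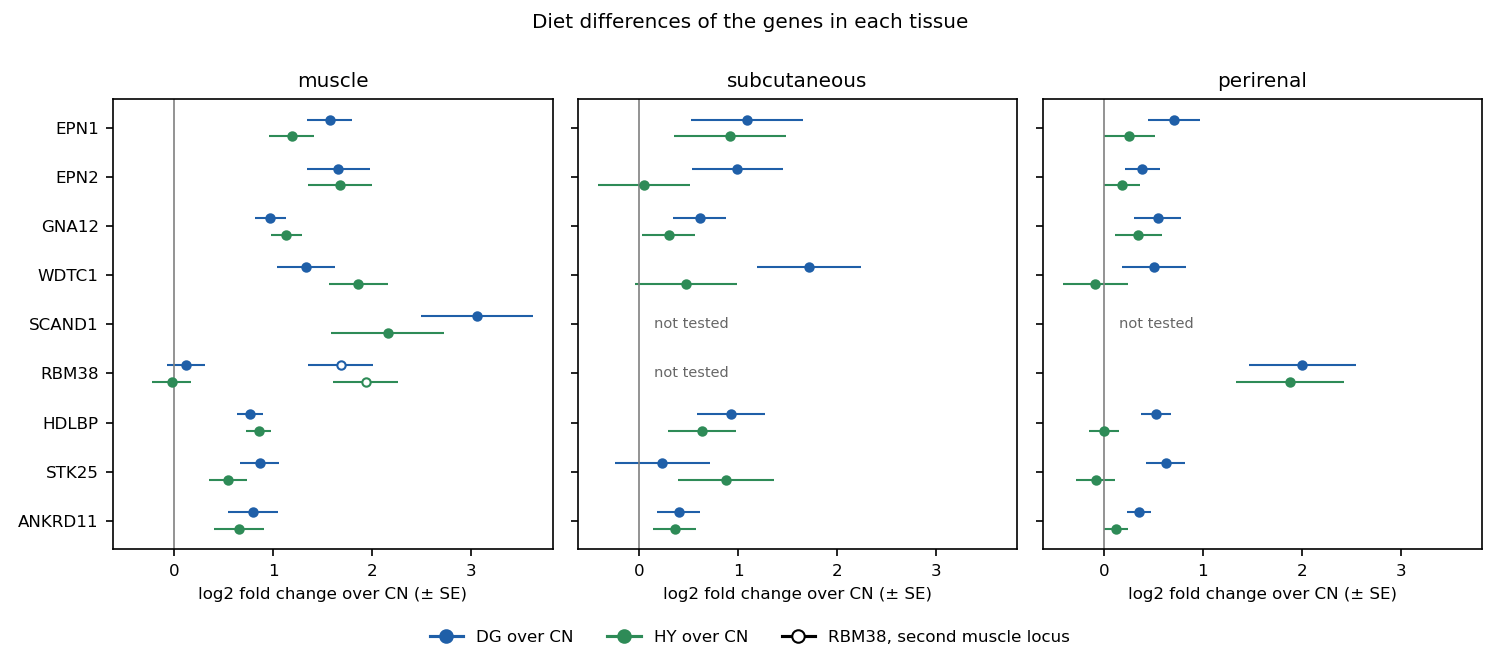
Log2 fold change over CN with its SE, estimated by edgeR from the 12 pools of each tissue, for DG (blue) and HY (green); open circles are the second RBM38 locus of muscle and the vertical line marks no difference. The muscle values, which chose the genes, lie right of 0 except for the HY value of RBM38 at its more abundant locus; in perirenal adipose tissue the DG values lie right of 0 while 7 of the 8 HY values lie between -0.09 and 0.35.

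Whether the diet responses differed between the depots was tested as an interaction in the 24 adipose libraries, over 13830 names. None of the 8 genes tested was called for DG over CN or for HY over CN, where 0% of names were called, also by the likelihood-ratio test. For DG over CN none of the 8 had an unadjusted p under 0.05, as 6.64% of names did, and the largest difference of responses was that of WDTC1, 1.24 ± 0.59 higher in the subcutaneous depot (FDR 0.724). For HY over CN only STK25 did (1.06 ± 0.49, FDR 0.938), beside 4.57% of names. Female and male pools differed in none of the genes in any tissue by edgeR (FDR 0.284 to 1), where 0% of muscle loci, 0% of subcutaneous loci and 0.0164% of perirenal loci were called. At an unadjusted p under 0.05, EPN2 (0.49 ± 0.226) and ANKRD11 (0.42 ± 0.179) had larger values in female pools of muscle (3.79% of loci), as had HDLBP in the subcutaneous depot (0.65 ± 0.219, 14.8% of loci), and none did in perirenal adipose tissue (3.29% of loci).

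The partners of these genes were followed in 8 lists, of which 6 are given here, and the members called in muscle were named after their values were seen. Beside these calls stand 1.01% of all muscle loci called for DG over CN and 2.69% for HY over CN. None of the listed genes was called between diets in either adipose depot. Among 15 members of the STRIPAK list tested in muscle, STRN4, a striatin scaffold, and CCM2, a kinase-binding scaffold of endothelial junctions, were called, STRN4 with 0.80 ± 0.154 and CCM2 with 0.67 ± 0.138 for DG over CN (FDR 0.0288 and 0.0387). Both were also called for HY over CN, at 0.68 and 0.69. Of the 18 tested ubiquitin ligase partners, AMBRA1, an autophagy regulator and ligase receptor, was higher by 0.93 ± 0.187 with DG and by 0.93 ± 0.187 with HY, and the scaffold CUL4A by 0.76 ± 0.181 with HY. Among 23 tested endocytosis partners none was called for DG over CN, and for HY over CN EPN3, the third epsin, was higher (0.51 ± 0.128) and FCHO2, a membrane-bending initiator of coated pits, was lower (-0.40 ± 0.092).

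Among 15 tested RNA-binding relatives of HDLBP only FXR2 was called in muscle, at 0.49 ± 0.0934 for HY over CN (FDR 0.0202). No member of the chromatin list (16 tested) or the SCAN-domain list (17 tested) was called in muscle. The medians of these lists lay between -0.05 and 0.05 for both comparisons with CN. For DG over CN the endocytosis, ubiquitin ligase, STRIPAK and HDLBP lists had medians of 0.05, 0.12, 0.16 and 0.06. In the subcutaneous depot the same 4 medians were 0.12, 0.28, 0.53 and 0.39, with no call, and in the perirenal depot they were 0.14, -0.03, -0.08 and -0.07.

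Whether the genes moved together between pools was described by deviations of log2 CPM from the diet mean, so that the diet differences that chose the genes were removed. Correlations are over 12 pools of a tissue, which share their library's scaling, and are given without a p. In subcutaneous adipose tissue the 21 pairs of the 7 genes had a median Pearson r of 0.633, and 16 pairs (76.2%) were above 0.5. Correlations of the same genes with all other loci had a median of 0.0247, and 15.3% were above 0.5. The highest pairs were EPN1 with HDLBP (0.84), EPN2 with WDTC1 (0.816) and HDLBP with STK25 (0.804). ANKRD11 stood apart from HDLBP (r = -0.0437) and STK25 (0.217), and only these genes and EPN1 (0.332) were below 0.5 with it.

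Muscle had a looser pattern. Its 36 pairs had a median r of 0.338, and 12 pairs (33.3%) were above 0.5, beside 14.3% of correlations with other loci. EPN2 with HDLBP (0.861), EPN2 with GNA12 (0.816) and SCAND1 with STK25 (0.805) were highest. WDTC1 went against STK25 (-0.704), SCAND1 (-0.685) and RBM38 (-0.653). The muscle median rested on 1 pool: without DG F1, where 8 of 9 genes were above their diet mean, it was 0.0973. With the second RBM38 locus in place of the first it was 0.416.

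In perirenal adipose tissue the 28 pairs had a median r of 0.072, with 6 pairs (21.4%) above 0.5 beside 10.6% of correlations with other loci. GNA12 with HDLBP (0.781) and EPN2 with ANKRD11 (0.714) were highest, and WDTC1 went against ANKRD11 (-0.548) and EPN2 (-0.505). For EPN1 with EPN2 the r was 0.686 in muscle, 0.688 in the subcutaneous and 0.151 in the perirenal depot. The neighbours STK25 and HDLBP had an r of -0.302 in muscle, 0.804 in the subcutaneous and -0.0775 in the perirenal depot, so the sign differed between tissues.

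**Figure D3:**
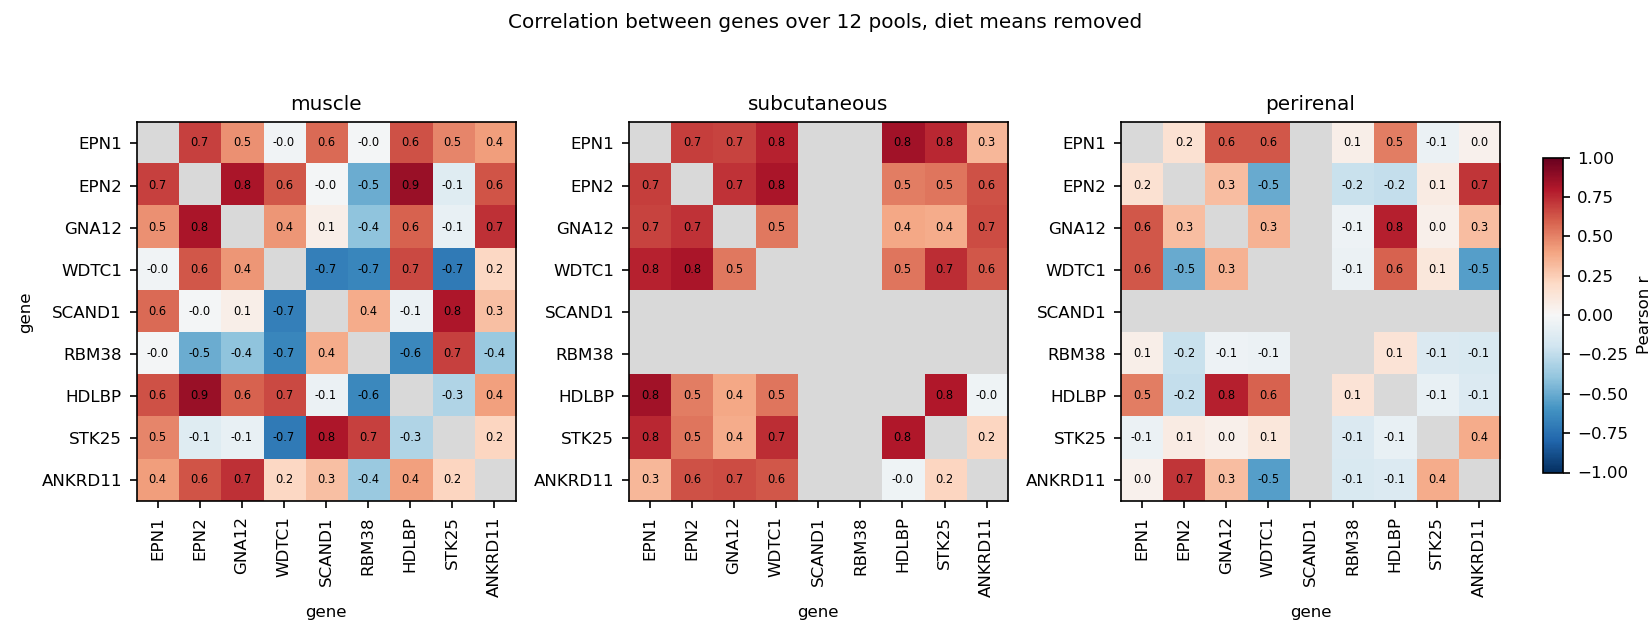
Pearson r between pairs of the genes over the 12 pools of each tissue after removal of diet means, from -1 (blue) to 1 (red); grey cells are the diagonal and genes that did not pass the filter on low counts. Subcutaneous cells are nearly all red (median 0.633), muscle cells are mixed with a blue block around WDTC1 (median 0.338), and perirenal cells are mostly pale (median 0.072).

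Library depth was related to these deviations in the subcutaneous depot. Within diets the correlation with the log2 library total was 0.858 for HDLBP, 0.731 for EPN1, 0.579 for STK25, 0.464 for EPN2, 0.413 for WDTC1, 0.362 for GNA12 and 0.0839 for ANKRD11, beside a median of 0.0195 over all loci. The CN pools M1 and M2, the DG pool M1 and the HY pool F1 had the 4 smallest totals of the depot, and at most 1 of the 7 genes was above its diet mean in each. All 7 genes were above their diet mean in CN F1, with 15064066 counts, and in HY M2, with 12698475 counts. CN F2, which holds only 1 fetus, had 18220713 counts and 2 genes above, so that a large total did not always go with high values.

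In a fit with diet and log2 library total, HDLBP rose by 0.87 ± 0.167 (SE, log2 per doubling of the total, FDR 0.0118) and EPN1 by 1.29 ± 0.388 (FDR 0.0425) in subcutaneous adipose tissue. These 2 of 7 genes stand beside 16.3% of the 18008 loci that were called, 9.67% as rising with the total and 6.62% as falling. At an unadjusted p under 0.05 STK25 was added, beside 34.7% of loci. HDLBP was called whichever pool was left out. EPN1 lost its call when any 1 of 10 pools was left out (FDR 0.0569 to 0.105), and kept it without CN F2 or HY M2. Without CN F2, WDTC1 (1.35, FDR 0.0304) and STK25 (1.39, FDR 0.0192) were called too. With the total taken after TMM scaling neither HDLBP (0.94, FDR 0.0982) nor EPN1 (1.61, FDR 0.107) was called.

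In this depot the muscle marker level was itself correlated with the library total (r = 0.827 within diets). Its correlations with the genes were 0.75 for HDLBP, 0.689 for EPN1, 0.65 for STK25, 0.541 for WDTC1, 0.329 for EPN2, 0.168 for GNA12 and 0.000761 for ANKRD11. After the deviations were taken from a fit on diet and library total, the median r between the genes was 0.59, and from a fit on diet and muscle marker level it was 0.607. The pairwise median was thus close to its value of 0.633 with either measure in the fit. The lowest median without a single pool was 0.449, without CN F1.

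In muscle and perirenal adipose tissue no gene had a called slope on the total. Within diets the correlations with the total lay between -0.218 (STK25) and 0.153 (GNA12) in muscle, and over all pools without removal of diet means between 0.147 (RBM38) and 0.724 (EPN1). The latter include the difference of totals between diets. In perirenal adipose tissue they ran from -0.595 (STK25) to 0.324 (EPN2), and STK25 instead followed the small muscle marker level there (r = 0.649). No gene was called for the slope on the total in muscle (FDR 0.922 to 0.998, 0% of loci called) or perirenal adipose tissue (FDR 0.425 to 0.921, 0% of loci called) by edgeR, and none by DESeq2 or the likelihood-ratio test. None had an unadjusted p under 0.05, as 4.81% of muscle and 13.2% of perirenal loci did. In muscle the correlation with the muscle marker level was -0.745 for ANKRD11, -0.693 for GNA12, -0.555 for EPN2 and 0.575 for RBM38.

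**Figure D4:**
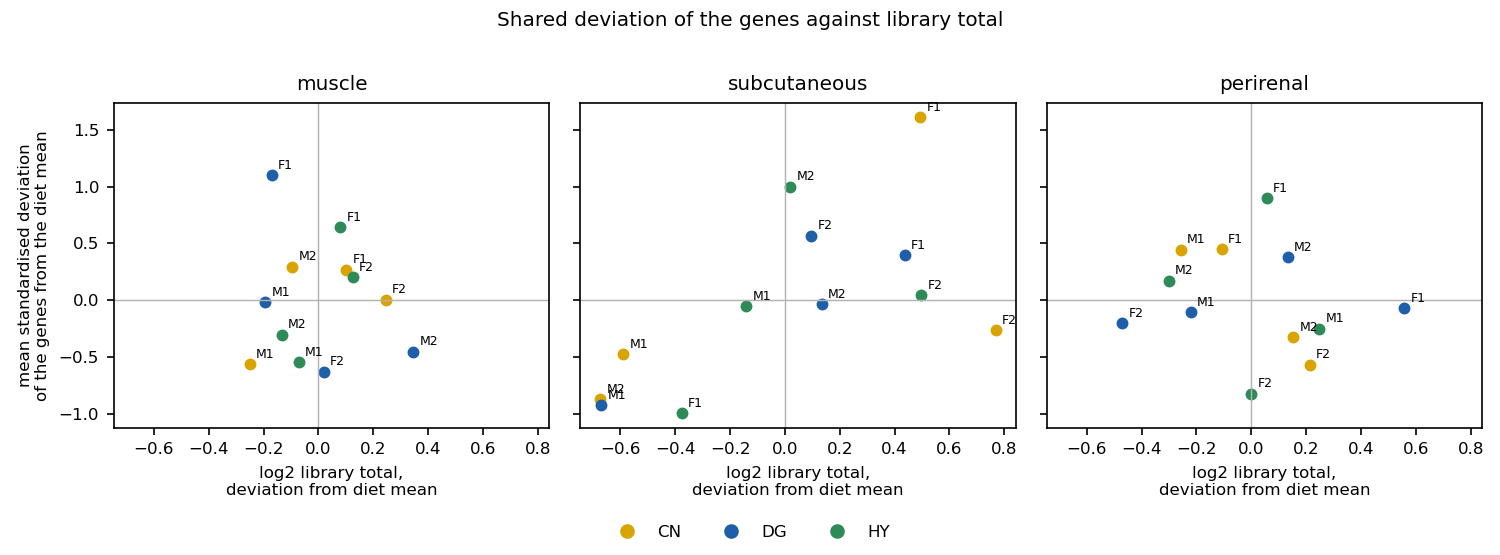
Mean standardised deviation of the genes from their diet mean in each pool (vertical, in SD units, 9 genes in muscle, 7 in the subcutaneous and 8 in the perirenal depot) against the deviation of log2 library total from the diet mean (horizontal); labels are pool names and colours are diets. In subcutaneous adipose tissue the 4 pools with the lowest values have small totals (r = 0.626 over 12 pools), and in muscle (r = -0.051) and perirenal adipose tissue (r = -0.175) the correlation is near 0.

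The same pools of fetuses were taken to be present in all tissues, so each gene's deviations could be set side by side between tissues. Muscle and subcutaneous deviations had a median r of -0.442 over the 7 genes (0.0635 over all names), from -0.825 for WDTC1 and -0.64 for EPN2 to 0.54 for STK25. Between muscle and perirenal adipose tissue the median of 8 genes was 0.116, with 0.509 for EPN2 as the highest. Between the depots the median of 7 genes was -0.198, with EPN1 lowest (-0.581). The correlation was above 0 for 3 of 7 genes between muscle and the subcutaneous depot, 6 of 8 between muscle and the perirenal depot and 3 of 7 between the depots.

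The named genes whose deviations were most like the mean of these genes were found among loci with a mean of at least 50 counts. In muscle they were HGS (r = 0.946), a subunit of the endosomal sorting machinery that binds ubiquitin, PEX16 (0.919), a peroxisome assembly factor, and FGD5 (0.915), an exchange factor for small GTPases in endothelium, among 12145 loci. In subcutaneous adipose tissue they were CUL7 (0.961), a cullin scaffold, KDM5C (0.955), a histone demethylase, and PTRF (0.948), which coats caveolae, among 11106 loci. In perirenal adipose tissue they were ENSOARG00000011215 (0.891), RAB8A (0.877), a GTPase of vesicle transport, and ENSOARG00000004268 (0.864), among 10860 loci. No gene was on more than 1 of these lists.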

How the data were processed

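RNA pools of fetal longissimus dorsi muscle and subcutaneous and perirenal adipose tissue were sequenced as 36 libraries, 12 per tissue. The submitters' processing notes and the paper name alignment to Oar_v3.1 with TopHat 2.0.4, assembly with Cufflinks 2.1.1, separately per tissue, and HTSeq. The authors deposited whole-number read counts per locus, without normalization. Loci were matched by gene name, taking the one with the highest mean count, and grouped by the labelled diet, sex and tissue.

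Loci were kept by filterByExpr of edgeR 4.0.16 (minimum count 10, minimum total 15), leaving 18573, 18008 and 18246 in muscle, subcutaneous and perirenal adipose tissue. Counts were scaled by TMM and tested by the quasi-likelihood F test on all 12 pools of a tissue, with Benjamini-Hochberg adjustment over all loci and a limit of FDR ≤0.05. The SE was taken from the F statistic (size of the log2 fold change over root F), and a total of 3 counts was taken as the floor of a count of 0. The floors cover counting error only, while the SE also holds the spread between pools. Tissues were compared over genes named in all 3, with TMM over all 36 libraries and the pool as a block. Correlations used log2 CPM with a prior count of 0.5. The 54 pairs of pools of the same diet and tissue differed by 9.835 to 286.6 in chi-square per degree of freedom, which is beyond counting error. Each pool was counted as a replicate, although this measure cannot show that pools with shared dams are independent. The scripts were tested on simulated data.

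Genes named are the 9 genes, the 3 most alike loci per tissue and list members past the limit in an adipose diet comparison, of which there were none. The list members named for muscle fall outside this rule, and 2 of the 8 lists are not reported here. The 9 genes and the lists were chosen with earlier results of these data known. Alternatives were RLE size factors, no filter, the likelihood-ratio test, DESeq2 1.42.0, a replicate block, only the diets compared, sex, library total or muscle marker level as a covariate, thinning, sums over loci, and each pool left out. Leaving out both male CN pools, the second RBM38 locus and the correction of correlations for muscle markers were added after seeing the data. Sequences and transcript lengths were not used here, so levels were not compared between genes per length. Software was R 4.3.3 and limma 3.58.1.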

Additional observations from a re-analysis of the deposited data

Results flagged for a closer look

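One group of 78 tested held a pool far from the others. RBM38 in the HY pool M1 of perirenal adipose tissue was at 0.490 CPM (6 counts), below the 1.01 to 1.06 CPM (9 to 11 counts) of the other HY pools. The gap was 0.937 of the group's range on the log2 CPM scale. Chance flags about 1 in 20 groups of 4.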

How the results depend on the processing

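Over the alternatives without a left-out pool, the adipose, tissue, sex and depth differences of single genes stayed on their side of FDR 0.05 in 889 cases, 6 came within it, 5 left it and 2 uncalled estimates changed sign by more than their spread. DESeq2 called 1 gene for subcutaneous DG over CN and the likelihood-ratio test 1 for perirenal DG over CN, where the main count was 0, and with the total after TMM scaling 0 genes rather than 2 had a subcutaneous slope on depth. Leaving out 1 pool gave 1 to 4 genes with that slope. It gave a median r between the genes in muscle of 0.0973 to 0.38, in subcutaneous of 0.449 to 0.703 and in perirenal adipose tissue of 0.0449 to 0.171. In muscle, leaving out 1 pool left 1 to 6 of 9 genes within the limit for DG over CN and 3 to 7 for HY over CN, with only the compared diets none were within it for DG over CN, and with the library total none for either. Same-numbered pools of different diets shared a number and the sex of the fetuses. The mean r of their deviations was -0.0409, 0.185 and 0.0534 in muscle, subcutaneous and perirenal adipose tissue. For pairs with other numbers it was 0.0153, -0.0641 and -0.0177. The replicate block left 0 adipose genes called, and gave 6 for each comparison with CN in muscle. Apart from DESeq2 and the likelihood-ratio test, the shares of all loci called in these alternative fits are not given. Nothing is therefore read from their counts of genes, and the muscle counts come from the differences that chose the genes. Without the pool block, WDTC1 and HDLBP also differed between depots (edgeR quasi-likelihood test, FDR 0.0365 and 0.0293). Without that block, the calls between muscle and each depot stayed the same for the genes other than SCAND1 and RBM38. In other settings the calls of STK25 and ANKRD11 against the perirenal depot were lost, and GNA12 came within the limit against the subcutaneous depot, as given above. Genes with few reads, SCAND1 and RBM38 in fat, are limited by depth. The causes were not tested.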
